A study of Mus musculus with 12 samples.

Results

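The genes described here are 30 named genes of cholesterol and fatty acid synthesis, looked up by gene symbol among the 12393 genes of an Affymetrix mouse expression array. They are enzymes of the mevalonate and sterol pathway, the transcription factors SREBP1 and SREBP2 that control it, a sterol carrier, and enzymes that make, lengthen and desaturate fatty acids. Of the 30, 29 were measured, and Insig1, a membrane protein that holds back SREBP activation, is not analysed here. Only Acaca, the acetyl-CoA carboxylase that commits carbon to fatty acid synthesis, lay in the weakly detected range, taken as the lowest 30% of genes (mean intensity under about 77.7).

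The 12 arrays come from fibroblasts of the stromal vascular fraction of white fat, the pool of connective tissue cells that holds preadipocytes. Cultures from inguinal (subcutaneous) or epididymal (visceral) fat were sorted into GFP+ and GFP- cells and regrown, giving 4 groups of 3 arrays. All groups share the Zfp423-GFP transgenic genotype, a genetic background of FVB and C57BL/6, male sex, an age of 6 to 8 weeks and growth in DMEM/F12 with fetal bovine serum, with harvest before growth arrest. Zfp423 is a transcriptional regulator of preadipocyte commitment, and the comparisons ask how GFP+ cells differ from GFP- cells in each depot and how the depots differ. The labels do not say whether the 3 arrays of a group came from separate mice or cultures, so every p-value measures the spread between these arrays, which may be technical. A GFP+ cell is defined by the reporter, and the sequence that drives it is not stated in the labels.

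Median intensities of the arrays ranged from 347.34 to 371.24 and correlations within a group from 0.993 to 0.995. Zfp423 itself read 151, 112 and 110 in inguinal GFP+ arrays, 47.4, 73.2 and 51.7 in inguinal GFP- arrays, 239, 278 and 208 in epididymal GFP+ arrays and 29.1, 25.8 and 33.4 in epididymal GFP- arrays, so it was higher in the GFP+ arrays of both depots with no overlap. The 10 fibroblast markers summed to between 190543 and 202576 on every array, a sum set mostly by collagens, Fn1 and Vim. Single markers differed between groups, with 5 of 10 called higher and 3 lower in epididymal GFP+ cells, and with 5 and 4 for the difference of the GFP contrast between depots. The shares of all genes called higher and lower were 21.5% and 20.3% in the first and 16.1% and 18.7% in the second. Pdgfrb, a receptor of fibroblasts and pericytes, had means of 13349 in epididymal GFP+ and 4042 in epididymal GFP- cells, and the matrix proteoglycans Dcn and Lum had group means of 2717 to 16871 and of 122 to 2396. The 13 measured mature adipocyte markers, 6 of them weakly detected, summed to 16782 to 19275 in inguinal GFP+, 7389 to 8089 in inguinal GFP-, 21465 to 23181 in epididymal GFP+ and 10725 to 13262 in epididymal GFP- arrays. Of these 13, 3 were called higher and 0 lower in inguinal GFP+ cells, and 5 higher and 0 lower in epididymal GFP+ cells. Over all genes the shares were 5.26% and 7.29% in inguinal and 21.5% and 20.3% in epididymal GFP+ cells. Fabp4, a fatty acid carrier of adipocytes, had means of 4913 and 1372 in inguinal GFP+ and GFP- cells and 6224 and 300.1 in epididymal ones, and Pparg, the adipogenic nuclear receptor, 838 and 335, and 214 and 35.6. Adipoq, the hormone adiponectin, was near background, with group means of 17.1 to 30.4. Pecam1 and Vwf, from a list of 12 endothelial markers, were also near background in all groups, with means of at most 22.5 and 12.6. Of the 12, 10 were weakly detected. Kdr and Esam of that list were not near background, with means of 4469 and 825 in epididymal GFP- cells. In bulk samples like these, fewer cells of a type and less RNA per cell cannot be told apart.

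Cells build cholesterol from acetyl-CoA through mevalonate, isoprenoid diphosphates, squalene and lanosterol. When membrane sterol is low, the SREBP proteins are carried to the Golgi by SCAP, cleaved, and enter the nucleus, where SREBP2 mainly drives sterol genes and SREBP1 mainly drives fatty acid genes. Both act at sterol response elements together with the co-factors NF-Y, which binds CCAAT boxes, and SP1, which binds GC boxes. In fat tissue, the fatty acid arm supplies the triglyceride of maturing adipocytes.

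Promoter letters are shown first because these genes are known as targets of one shared control system. RefSeq windows of 250 bases before to 50 after the transcript start (build GRCm38.p6) matched 22 of the 29 measured genes, 3 of them with several windows. The printed stretches are the 150 bases that end just before the start, read 5′ to 3′ on the gene's strand, for 5 enzymes that were lower in epididymal GFP+ cells and, for contrast, Ebp, which was higher there. Capitals mark a CCAAT box on either strand and, in Hmgcs1, the sterol response element core. They lie at chr13:119690201-119690350 (plus strand, Hmgcs1), chr13:8885456-8885605 (plus, Idi1), chr5:4104698-4104847 (minus, Cyp51), chr9:42264301-42264450 (minus, Sc5d), chr19:6067851-6068000 (minus, Tm7sf2) and chrX:8193513-8193662 (minus, Ebp).
Hmgcs1: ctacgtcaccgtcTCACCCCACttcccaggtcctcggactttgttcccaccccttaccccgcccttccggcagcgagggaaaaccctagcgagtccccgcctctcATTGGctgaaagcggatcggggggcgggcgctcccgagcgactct
Idi1: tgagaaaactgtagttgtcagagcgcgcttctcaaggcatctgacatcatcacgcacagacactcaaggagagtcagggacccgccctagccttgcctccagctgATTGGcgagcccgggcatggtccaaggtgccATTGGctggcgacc
Cyp51: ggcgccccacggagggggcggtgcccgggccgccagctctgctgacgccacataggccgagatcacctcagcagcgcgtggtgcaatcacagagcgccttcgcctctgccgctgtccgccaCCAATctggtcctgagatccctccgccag
Sc5d: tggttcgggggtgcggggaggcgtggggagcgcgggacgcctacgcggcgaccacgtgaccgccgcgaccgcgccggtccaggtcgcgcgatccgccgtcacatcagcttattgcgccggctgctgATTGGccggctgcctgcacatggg
Tm7sf2: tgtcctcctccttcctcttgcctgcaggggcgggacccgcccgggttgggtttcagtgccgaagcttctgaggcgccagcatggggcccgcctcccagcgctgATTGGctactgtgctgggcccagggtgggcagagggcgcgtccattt
Ebp: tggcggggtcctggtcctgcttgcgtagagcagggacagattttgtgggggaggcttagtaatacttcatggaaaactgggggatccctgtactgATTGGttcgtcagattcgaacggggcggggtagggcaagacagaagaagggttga
A CCAAT box was found in 19 of the 22 genes, against 42.3% of the 9887 genes of the array with a window and 37.41% of all 32851 windows of that length. The GC box GGGCGG was found in 17 of 22 genes, against 61.05% of array genes and 35.66% of windows, and the E-box CACGTG in 4 of 22, against 10.81% and 7.15%. The core TCACNCCAC was found in 1 of 22, Hmgcs1, where it starts 137 bases before the transcript, against 1.5% of array genes and 1.24% of windows. For the sterol response element only this form, with any letter at N, was searched, so other forms of the element were not counted. Both strands were searched and no matches of different motifs overlapped. A match describes letters in a window, not a bound site. Of the 6 promoters shown, those of Ebp and of the 5 enzymes that fell in epididymal GFP+ cells all hold a CCAAT box, as do most of the 22 genes. With only 1 gene shown for contrast, a link between this motif and the direction of change was not tested.

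Mean levels were highest in inguinal GFP+ cells for 25 of the 29 genes, against 21.8% of all genes, and lowest in epididymal GFP+ cells for 14, against 20.9%. The 4 genes highest in another group were Mvd and Scd1 (epididymal GFP+) and Elovl5 and Acaca (epididymal GFP-). Differences are given as log2 differences of intensity + 16 with their SE, and a gene is called higher or lower where limma's p-value, adjusted over all 12393 genes by Benjamini-Hochberg, was under 0.05. In inguinal fat, 21 of 29 genes were called higher in GFP+ than in GFP- cells and 0 lower, against 5.26% of all genes called higher and 7.29% called lower. In epididymal fat, 6 of 29 were called higher in GFP+ cells and 13 lower, against 21.5% and 20.3% of all genes. The median log2 difference of the 29 genes was 0.30 in inguinal and -0.07 in epididymal fat, beside -0.01 and 0.01 over all genes. These 2 comparisons share no arrays.

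**Figure D1:**
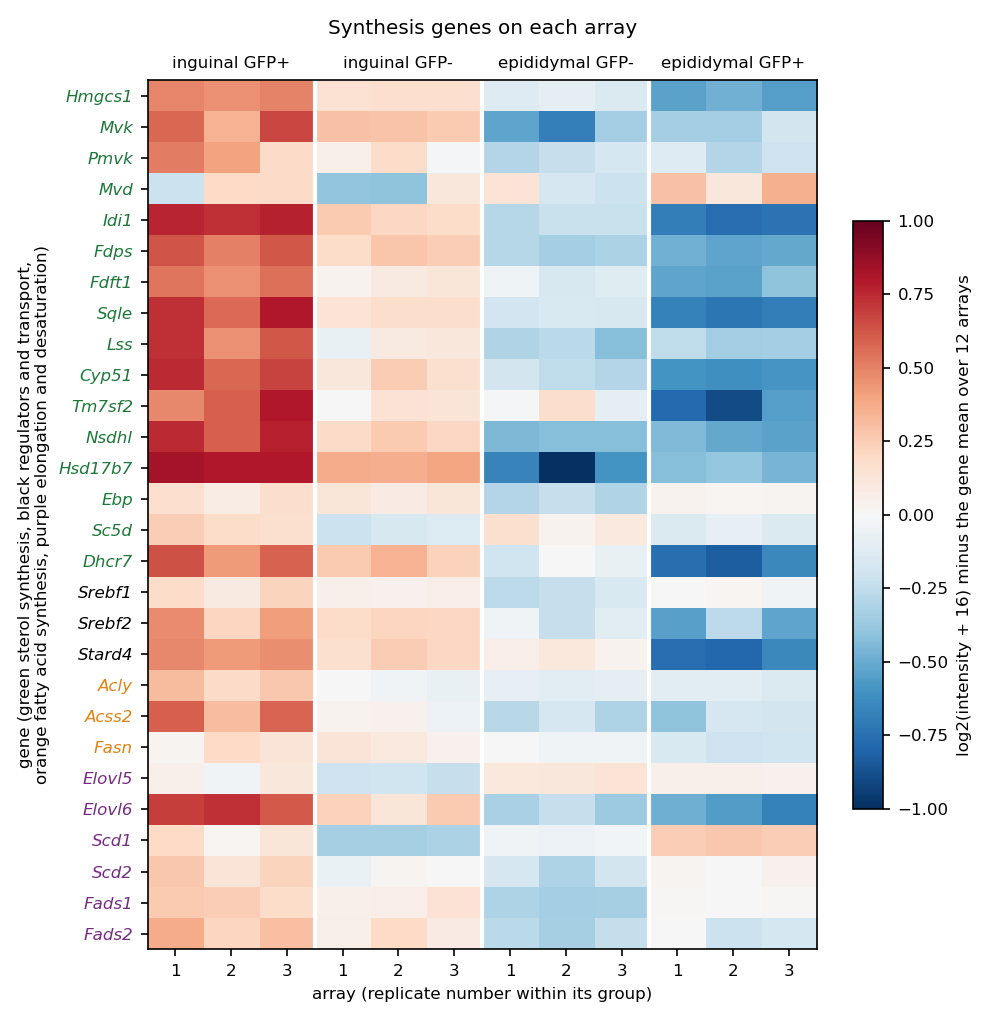
Each row is 1 of 28 measured synthesis genes (Acaca is left out as weakly detected) and each column 1 of the 12 arrays, with inguinal arrays on the left and epididymal arrays on the right, GFP+ cells at the outer edges. Colour gives log2(intensity + 16) minus that gene's mean over the 12 arrays and is limited to -1 and 1. Most green (sterol synthesis) rows go from red on the left to blue on the right, while Scd1, Mvd and Ebp do not.

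The difference of the GFP contrast between depots, inguinal minus epididymal, was called for 21 of the 29 genes, 19 of them positive and 2 negative, where 16.1% and 18.7% of all genes were called positive and negative. This difference uses the same arrays as the contrasts it is made from. A total of 14 of 29 genes had means that fell from inguinal GFP+ through inguinal GFP- and epididymal GFP- to epididymal GFP+, an order held by 5.58% of all genes. The genes were chosen with earlier results of these data known. Every count of them set beside a share of all genes, above and below, is therefore a description, not a test. A total of 11 of 29 genes were called higher in inguinal GFP+ cells and lower in epididymal GFP+ cells, against 1.66% of all genes. They are the sterol enzymes Hmgcs1, Idi1, Fdps, Fdft1, Sqle, Cyp51, Tm7sf2, Sc5d and Dhcr7, the carrier Stard4 and the elongase Elovl6. Asking for a change of more than 1.5-fold left 0 of the 29 genes called in inguinal fat, against 0.968% of all genes, and 1 in epididymal fat, against 7.61%. For the difference of the GFP contrast between depots it left 7 of 29, against 7.14%.

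By role, sterol synthesis enzymes are 16 of the 29 genes, and they were 13 of the 21 inguinal calls and 9 of the 13 genes called lower in epididymal GFP+ cells. The counts below stand beside 5.26% higher and 7.29% lower of all genes in inguinal fat and 21.5% and 20.3% in epididymal fat. In inguinal fat 13 of 16 were called higher and 0 lower in GFP+ cells, with a median of 0.40. In epididymal fat 2 were called higher and 9 lower, with a median of -0.21. Of the 4 fatty acid synthesis genes, 2 were called higher and 0 lower in inguinal fat, and 0 higher and 1 lower in epididymal fat. Of the 6 elongation and desaturation genes, 5 were called higher in inguinal GFP+ cells, and in epididymal fat 3 were called higher and 1 lower.

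Hmgcs1, which makes HMG-CoA at the entry of the pathway, read 8887, 8720 and 8946 in inguinal GFP+ arrays, 7054, 7137 and 7132 in inguinal GFP- arrays, 5790, 5934 and 5736 in epididymal GFP- arrays and 4355, 4525 and 4312 in epididymal GFP+ arrays. No group overlapped another. GFP+ cells were higher by 0.32 ± 0.027 in inguinal fat (adjusted p = 5.85e-07), while the epididymal difference was -0.40 ± 0.027 (adjusted p = 2.82e-09). The inguinal minus epididymal difference between these was 0.72 ± 0.038 (adjusted p = 3.16e-10).

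Idi1, the isomerase that makes the 2 isoprenoid building blocks interchangeable, read 3038, 2970 and 3049 in inguinal GFP+, 2141, 2064 and 2030 in inguinal GFP-, 1457, 1522 and 1523 in epididymal GFP- and 1095, 1046 and 1061 in epididymal GFP+ arrays. The 4 groups again stood apart in that order. The inguinal difference was 0.54 ± 0.038 (adjusted p = 9.29e-08) and the epididymal one -0.48 ± 0.038 (adjusted p = 2.49e-08). Between GFP+ cells, Idi1 was 2.8-fold higher in inguinal than in epididymal cultures, the widest depot gap of the 29 genes.

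Sqle, squalene epoxidase, the first oxygen-requiring step, read 4625, 4131 and 4859 in inguinal GFP+, 3060, 3155 and 3148 in inguinal GFP-, 2442, 2510 and 2484 in epididymal GFP- and 1742, 1680 and 1718 in epididymal GFP+ arrays. These groups did not overlap either. The epididymal and inguinal differences were of like size and opposite sign, at -0.53 ± 0.047 (adjusted p = 1.03e-07) and 0.53 ± 0.047 (adjusted p = 8.95e-07). Sqle was 2.63-fold higher in inguinal than in epididymal GFP+ cells.

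Fdps, which makes farnesyl diphosphate at the branch to prenylation, read 8107, 7404 and 8066 in inguinal GFP+, 5954, 6324 and 6195 in inguinal GFP-, 4293, 4122 and 4188 in epididymal GFP- and 3732, 3624 and 3666 in epididymal GFP+ arrays. It kept the same order without overlap, with differences of 0.35 ± 0.036 (adjusted p = 5.14e-06) and -0.19 ± 0.036 (adjusted p = 0.000363). A second Fdps probe set lay near background (group means of 2.84 to 11.3), and the mean of both sets gave an epididymal difference of 0.01 (adjusted p = 0.964) and no inguinal call (0.13, adjusted p = 0.636) or difference between them (0.12, adjusted p = 0.689).

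**Figure D2:**
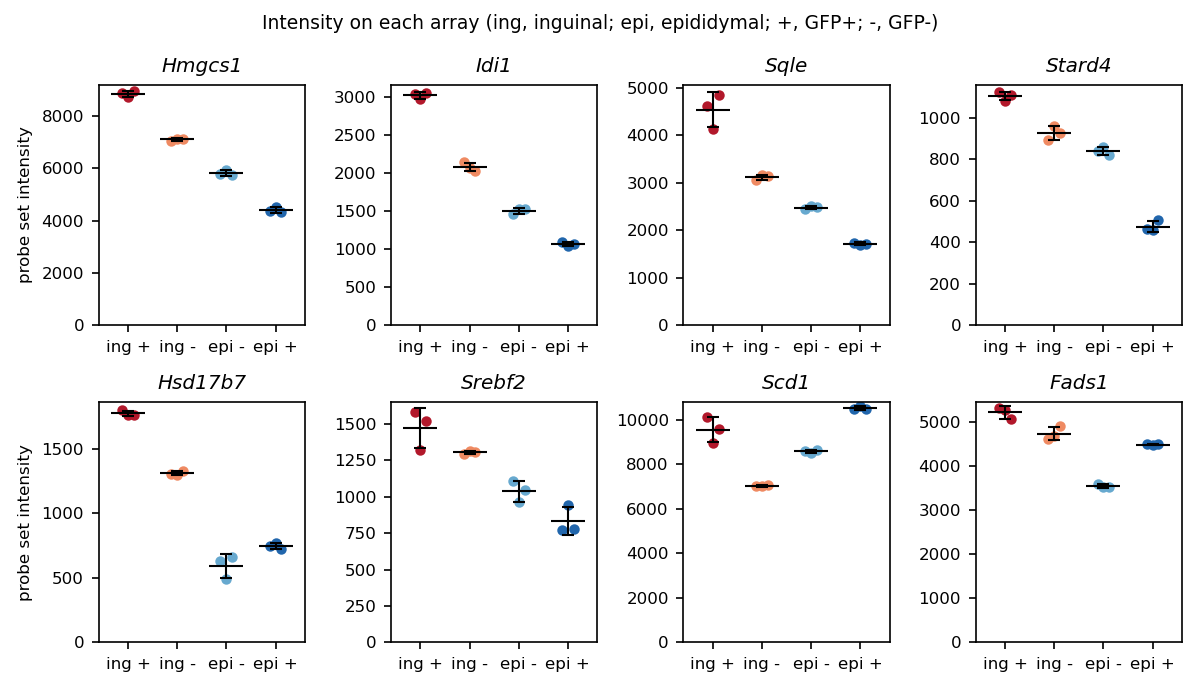
Each panel plots the probe set intensity (linear axis from 0) of 1 gene on each of the 12 arrays, as points by group, with the mean as a black bar and the SD as whiskers (n = 3). Hmgcs1, Idi1, Sqle and Stard4 step down from inguinal GFP+ to epididymal GFP+, from 3019 to 1068 in the means of Idi1, whereas Scd1 is highest in epididymal GFP+ and Fads1 and Hsd17b7 are lowest in epididymal GFP-.

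Sc5d, the desaturase that acts late on the sterol ring, read 3420, 3274 and 3218 in inguinal GFP+, 2470, 2568 and 2614 in inguinal GFP-, 3213, 2948 and 3081 in epididymal GFP- and 2606, 2722 and 2597 in epididymal GFP+ arrays. Here inguinal GFP- cells were lowest in mean and overlapped epididymal GFP+ cells. The inguinal difference was 0.37 ± 0.039 (adjusted p = 7.02e-06) and the epididymal one -0.22 ± 0.039 (adjusted p = 0.000238). The latter was -0.01 (adjusted p = 0.893) in the mean with a second, dimmer probe set.

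Nsdhl, a dehydrogenase of the sterol demethylation complex, read 4088, 3678 and 4164 in inguinal GFP+, 2772, 2912 and 2800 in inguinal GFP-, 1771, 1802 and 1805 in epididymal GFP- and 1780, 1698 and 1669 in epididymal GFP+ arrays. It rose in inguinal GFP+ cells by 0.49 ± 0.045 (adjusted p = 1.5e-06). Its epididymal groups overlapped, with a difference of -0.06 ± 0.045 (adjusted p = 0.298, 95% interval -0.16 to 0.03).

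Hsd17b7, the keto-reductase of that complex, and Ebp, a sterol isomerase, were the 2 sterol enzymes called higher in epididymal GFP+ cells. Hsd17b7 read 1799, 1762 and 1761 in inguinal GFP+, 1307, 1298 and 1328 in inguinal GFP-, 629, 489 and 659 in epididymal GFP- and 745, 766 and 723 in epididymal GFP+ arrays. All 4 groups stood apart and the GFP+ cells were the higher ones in both depots, by 0.43 ± 0.080 (adjusted p = 0.0015) and 0.33 ± 0.080 (adjusted p = 0.00283). The difference between these was 0.10, with an interval of -0.14 to 0.34 (adjusted p = 0.573), and it was called without epididymal GFP- array 2 (0.23, adjusted p = 0.0176).

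Ebp read 2374, 2221 and 2377 in inguinal GFP+, 2291, 2226 and 2289 in inguinal GFP-, 1721, 1791 and 1710 in epididymal GFP- and 2160, 2140 and 2147 in epididymal GFP+ arrays. Its inguinal groups overlapped, with a difference of 0.03 ± 0.037 (adjusted p = 0.661, interval -0.05 to 0.11), while epididymal GFP+ cells were higher by 0.30 ± 0.037 (adjusted p = 5.04e-06). It was 1 of only 2 genes, with the desaturase Fads1, for which the inguinal minus epididymal difference was called negative (-0.27 ± 0.053, adjusted p = 0.000729).

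The other 8 sterol enzymes split by step. Fdft1 (squalene synthase), Cyp51 (lanosterol demethylase), Tm7sf2 (a sterol reductase) and Dhcr7 (the reductase of the last step to cholesterol) rose in inguinal GFP+ cells by 0.27 to 0.54 and had epididymal differences of -0.76 to -0.36. Tm7sf2 had the widest difference of the GFP contrast between depots, 1.30 ± 0.17 (adjusted p = 1.14e-05). Its group means were 437, 295, 281 and 159 in the order of the heat map. Dhcr7, at means of 867, 715, 551 and 344, kept its epididymal call on leaving out any array, while the inguinal one (0.27, adjusted p = 0.0324) was lost without inguinal GFP+ array 1 or 3 or inguinal GFP- array 1 or 3 (adjusted p 0.102 to 0.147) and without a variance trend (adjusted p = 0.0535). For Fdft1 the mean over all its probe sets, several of them dim, left neither GFP contrast called (adjusted p = 0.0998 and 0.199).

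Lss, lanosterol synthase, rose in inguinal GFP+ cells by 0.56 ± 0.078 (adjusted p = 0.000108), while its epididymal difference was 0.02 (adjusted p = 0.911). Its brightest probe set may also match other transcripts by its suffix, and the set next in brightness, with means of 314, 214, 181 and 112, gave an epididymal difference of -0.63 (adjusted p = 0.000453, a choice made after seeing the data). The mean of all Lss probe sets gave an inguinal difference of 0.26 (adjusted p = 0.126), so the Lss values in both depots depend on the probe set. Its depot difference in GFP- cells was also lost with the set next in brightness (0.22, adjusted p = 0.142).

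The 2 kinases and the decarboxylase from mevalonate to isopentenyl diphosphate moved least clearly. Mvk was not called in either GFP contrast (0.25, adjusted p = 0.138 and 0.23, adjusted p = 0.0801), but became so without inguinal GFP+ array 2 (0.34, adjusted p = 0.0393) or epididymal GFP- array 3 (0.32, adjusted p = 0.0255). Pmvk was called higher in inguinal GFP+ cells (0.30, adjusted p = 0.0474), a call lost without inguinal GFP+ array 1 or 2, inguinal GFP- array 1 or 3, epididymal GFP+ array 2 or 3 or any epididymal GFP- array (adjusted p 0.0535 to 0.213), without a variance trend (adjusted p = 0.0606) and in a fit of only the inguinal arrays (adjusted p = 0.0896). Its difference of the GFP contrast between depots was called only without inguinal GFP+ array 3 (0.36, adjusted p = 0.0392).

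Mvd, the decarboxylase, was not called in any comparison by its brightest probe set, whose means were 527, 431, 475 and 602. A second set, which may match other transcripts, had means of 637, 434, 347 and 223, in the order shared by most sterol enzymes. The mean of both gave a difference of the GFP contrast between depots of 0.55 (adjusted p = 0.00618), opposite in sign to that of the brightest set (-0.05), with an inguinal difference of 0.41 (adjusted p = 0.0129) and an epididymal one of -0.14 (adjusted p = 0.295). The inguinal difference of 0.29 was called without inguinal GFP- array 3 (0.46, adjusted p = 0.0444), and the epididymal one of 0.34 in a fit of only the epididymal arrays (adjusted p = 0.0281) and without inguinal GFP- array 3 (adjusted p = 0.0344) or epididymal GFP- array 1 (0.45, adjusted p = 0.0338).

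**Figure D3:**
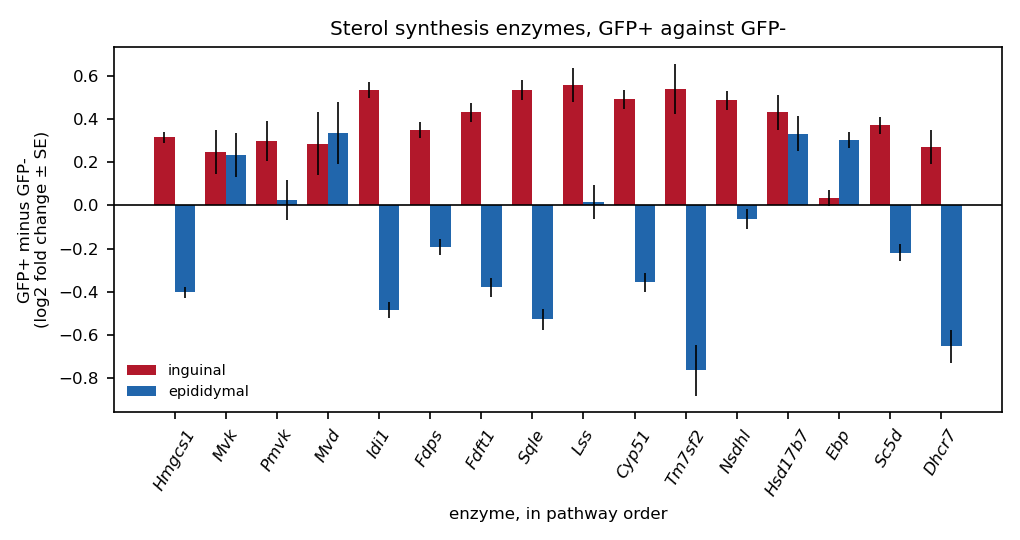
Bars give the log2 difference of GFP+ against GFP- cells for the 16 sterol synthesis enzymes in the order of the pathway, red for inguinal and blue for epididymal fat, with the SE as whiskers (3 arrays a group). Red bars are all above 0, from 0.03 (Ebp) to 0.56 (Lss), and the deepest blue bar is Tm7sf2 at -0.76.

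Among the regulators, the brightest probe set of Srebf2, which encodes SREBP2, had the order of groups seen in most sterol enzymes. Srebf1, which encodes SREBP1, did not have that order. Srebf2 read 1578, 1320 and 1518 in inguinal GFP+, 1291, 1313 and 1306 in inguinal GFP-, 1106, 964 and 1043 in epididymal GFP- and 773, 940 and 779 in epididymal GFP+ arrays. The groups did not overlap, though neighbours came close. The inguinal difference of 0.17 ± 0.079 was not called (adjusted p = 0.204, interval 0.00 to 0.34), and was called without inguinal GFP+ array 2 (0.25, adjusted p = 0.0444). The epididymal difference was -0.32 ± 0.079 (adjusted p = 0.0035) and the contrast differed between depots by 0.49 ± 0.11 (adjusted p = 0.0025). The second Srebf2 probe set did not fall in epididymal GFP+ cells. Its means were 681 and 592 in inguinal GFP+ and GFP- cells, and 545 and 555 in epididymal GFP- and GFP+ cells. In the mean of both Srebf2 probe sets the epididymal difference was -0.14 (adjusted p = 0.0934).

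Srebf1 read 3386, 3165 and 3478 in inguinal GFP+, 3078, 3070 and 3110 in inguinal GFP-, 2475, 2531 and 2678 in epididymal GFP- and 2987, 3025 and 2904 in epididymal GFP+ arrays. It was higher in epididymal GFP+ than GFP- cells by 0.21 ± 0.040 (adjusted p = 0.000313). In inguinal fat the 0.11 ± 0.040 difference missed the threshold (adjusted p = 0.0764) and passed it without inguinal GFP+ array 2 (0.15, adjusted p = 0.0129), with each array centred on its median (0.15, adjusted p = 0.0167) and with array weights (0.13, adjusted p = 0.0282). The difference of the GFP contrast between depots was -0.10, with an interval of -0.22 to 0.02 (adjusted p = 0.195). The array reads transcripts, and SREBP activity is set largely by cleavage of the protein, which was not measured.

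Stard4, a carrier that moves cholesterol between membranes, read 1124, 1082 and 1110 in inguinal GFP+, 894, 959 and 925 in inguinal GFP-, 840, 860 and 820 in epididymal GFP- and 464, 457 and 505 in epididymal GFP+ arrays. Epididymal GFP+ cells stood far below the other groups, at a difference of -0.80 ± 0.056 from epididymal GFP- cells (adjusted p = 5.25e-09), a 1.74-fold gap. This was the 1 epididymal call that passed the 1.5-fold minimum. Inguinal GFP+ cells were higher by 0.25 ± 0.056 (adjusted p = 0.00582).

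In fatty acid synthesis, Fasn, fatty acid synthase, read 4834, 5448 and 5198 in inguinal GFP+, 5183, 5081 and 4902 in inguinal GFP-, 4748, 4624 and 4640 in epididymal GFP- and 4278, 4116 and 4143 in epididymal GFP+ arrays. The inguinal groups overlapped (0.03 ± 0.039, adjusted p = 0.741, interval -0.05 to 0.11). The epididymal difference was -0.16 ± 0.039 (adjusted p = 0.00297). The difference of the GFP contrast between depots, 0.19, lost its call without a variance trend (adjusted p = 0.053). Acly, which splits citrate to cytosolic acetyl-CoA, and Acss2, which makes acetyl-CoA from acetate, rose in inguinal GFP+ cells by 0.30 ± 0.032 (adjusted p = 7.95e-06) and 0.49 ± 0.11 (adjusted p = 0.00692). In epididymal fat their differences were -0.02 (interval -0.09 to 0.05) and 0.00 (interval -0.24 to 0.24), and neither was called. For Acss2 the difference of the GFP contrast between depots was 0.49 (adjusted p = 0.0233). This call was lost without inguinal GFP+ array 1 or 3, inguinal GFP- array 3, epididymal GFP+ array 1 or epididymal GFP- array 2 (adjusted p 0.0547 to 0.0626) and in the mean of both probe sets (0.38, adjusted p = 0.055). Acaca had group means of 21 to 36.3 and was not called in any comparison.

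Of the 4 fatty acid desaturases, 3 were called higher in epididymal GFP+ cells, against 21.5% of all genes. There 9 of 16 sterol enzymes were called lower, against 20.3% of all genes. Scd1, which makes monounsaturated fatty acids, read 10104, 8962 and 9578 in inguinal GFP+, 7009, 6997 and 7077 in inguinal GFP-, 8605, 8485 and 8631 in epididymal GFP- and 10471, 10617 and 10473 in epididymal GFP+ arrays. It was higher in GFP+ cells of both depots, by 0.44 ± 0.034 (adjusted p = 1.99e-07) and 0.29 ± 0.034 (adjusted p = 1.99e-06), with all groups apart. The gap between these, 0.14 (adjusted p = 0.0258), was lost without inguinal GFP+ array 1, inguinal GFP- array 1 or 2, epididymal GFP+ array 1 or 3 or epididymal GFP- array 3 (adjusted p 0.0514 to 0.0618), without a variance trend (adjusted p = 0.0947) and in the mean of both probe sets (0.13, adjusted p = 0.0927).

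Scd2, the isoform of many tissues outside liver, read 20791, 18905 and 20141 in inguinal GFP+, 16468, 17612 and 17259 in inguinal GFP-, 15365, 13903 and 15218 in epididymal GFP- and 17595, 17190 and 17775 in epididymal GFP+ arrays. GFP+ cells were higher by 0.22 ± 0.040 (adjusted p = 0.00124) and 0.24 ± 0.040 (adjusted p = 0.000109). The inguinal minus epididymal difference between these was -0.02, with an interval of -0.14 to 0.10. Scd2 itself was higher in inguinal fat, by 0.19 (adjusted p = 0.00104) in GFP+ and 0.21 (adjusted p = 0.000331) in GFP- cells.

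Fads1, a desaturase of polyunsaturated fatty acids, read 5330, 5281 and 5058 in inguinal GFP+, 4624, 4676 and 4918 in inguinal GFP-, 3600, 3517 and 3527 in epididymal GFP- and 4492, 4470 and 4493 in epididymal GFP+ arrays. Epididymal GFP- cells were lowest. GFP+ cells were higher by 0.14 ± 0.031 in inguinal (adjusted p = 0.00587) and by 0.34 ± 0.031 in epididymal fat (adjusted p = 1.63e-07). The inguinal minus epididymal difference between these was -0.20 ± 0.044 (adjusted p = 0.00205). Fads2, its partner desaturase, was not called in either contrast (0.18, adjusted p = 0.0719 and 0.15, adjusted p = 0.0745). It was called without inguinal GFP+ array 2 (adjusted p = 0.0331) or epididymal GFP+ array 1 (adjusted p = 0.0392), with median centring (0.22, adjusted p = 0.0275) or with array weights (adjusted p = 0.0348) in inguinal fat, and without epididymal GFP+ array 2 (adjusted p = 0.043) in epididymal fat.

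The 2 elongases differed. Elovl6, which lengthens palmitate, had the order of groups seen in most sterol enzymes, with means of 1363, 979, 681 and 563, an inguinal difference of 0.47 ± 0.064 (adjusted p = 8.23e-05) and an epididymal one of -0.27 ± 0.064 (adjusted p = 0.00268). Elovl5, which lengthens polyunsaturated fatty acids, read 7577, 7131 and 7912 in inguinal GFP+, 6335, 6373 and 6239 in inguinal GFP-, 7888, 7930 and 8046 in epididymal GFP- and 7597, 7577 and 7520 in epididymal GFP+ arrays. Inguinal GFP- cells were the low group, and the inguinal difference was 0.25 ± 0.032 (adjusted p = 3.67e-05). The epididymal difference of -0.07 missed the threshold (adjusted p = 0.0819). It was called with each array centred on its median (-0.10, adjusted p = 0.0169), with array weights (adjusted p = 0.0476), in the mean of all probe sets (-0.09, adjusted p = 0.034), in a fit of only the epididymal arrays (adjusted p = 0.0294) and without inguinal GFP+ array 2 (adjusted p = 0.0233) or 3 (adjusted p = 0.0403).

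**Figure D4:**
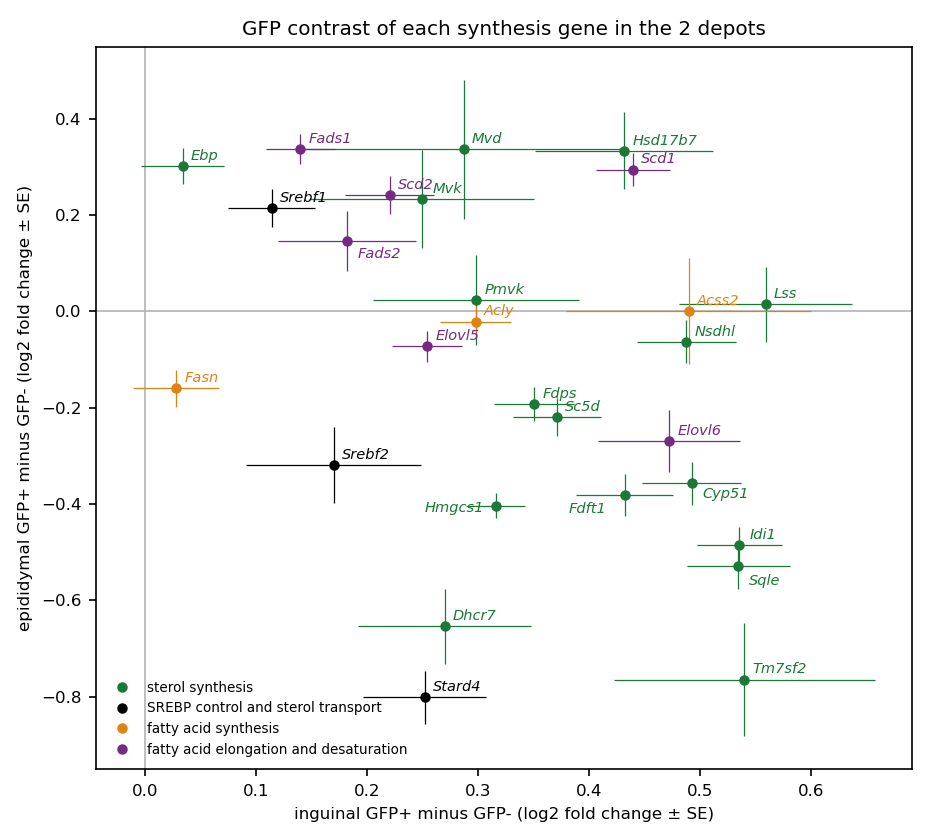
Each point is 1 of 28 measured genes (Acaca is left out), placed by its GFP+ minus GFP- log2 difference in inguinal fat (horizontal) and epididymal fat (vertical), with SE bars and coloured by role. All points lie to the right of 0, from 0.03 (Fasn) to 0.56 (Lss), and they spread vertically from Fads1 and Mvd at 0.34 down to Stard4 at -0.80.

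Between depots, inguinal cells carried more of these transcripts. Among GFP+ cells 25 of 29 genes were called higher in inguinal than in epididymal fat and 1 lower, against 23.6% and 27.2% of all genes. Among GFP- cells 21 were called higher and 3 lower, against 27.4% and 26.3%. The medians of the 29 genes were 0.82 in GFP+ and 0.31 in GFP- cells, beside -0.04 and -0.02 over all genes, and these comparisons share their arrays with the GFP contrasts above. The 1.5-fold minimum left 13 of 29 genes called in GFP+ cells, against 5.65% of all genes, and 1 of 29 in GFP- cells, against 11.8%.

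In GFP+ cells all 3 regulators and carriers and 15 of 16 sterol enzymes were higher in inguinal fat, and the enzymes had a median of 1.05. Hmgcs1 was 2.01-fold, Nsdhl 2.3-fold, Hsd17b7 2.35-fold and Stard4 2.28-fold higher. In GFP- cells the steps were smaller for most, at 1.22-fold for Hmgcs1 and 1.38-fold for Idi1, while Hsd17b7 was still 2.2-fold and Mvk 1.74-fold higher. Srebf2 was higher in inguinal fat by 0.82 ± 0.079 in GFP+ (adjusted p = 3.7e-07) and by 0.33 ± 0.079 in GFP- cells (adjusted p = 0.00224).

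The genes lower in inguinal than in epididymal fat were the desaturase Scd1 in GFP+ cells (-0.14, adjusted p = 0.00223) and Scd1 (-0.29, adjusted p = 1.9e-06), Elovl5 (-0.33, adjusted p = 1.76e-07) and Sc5d (-0.27, adjusted p = 2.14e-05) in GFP- cells. After centring each array on its median, the Scd1 difference in GFP+ cells was -0.07 (adjusted p = 0.0601). In the mean of all probe sets, the depot differences of Sc5d (0.09, adjusted p = 0.27) and Fads2 (0.14, adjusted p = 0.0777) in GFP+ cells and of Fdft1 in GFP- cells (0.06, adjusted p = 0.679) were not called. Ebp was higher in inguinal GFP+ cells by 0.11 (adjusted p = 0.0202), a call lost without inguinal GFP+ array 1 or 3 or epididymal GFP+ array 2 (adjusted p 0.0516 to 0.0776).

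In GFP- cells, Stard4 (0.14, adjusted p = 0.0483) lost its call on leaving out any inguinal GFP+ array, inguinal GFP- array 2 or 3 or any epididymal GFP- array (adjusted p 0.0533 to 0.168). Fasn (0.11, adjusted p = 0.0205) lost it without inguinal GFP- array 1 or 2 or epididymal GFP- array 2 or 3 (adjusted p 0.0572 to 0.0885) or a variance trend (adjusted p = 0.0633), and Pmvk (0.31, adjusted p = 0.011) without inguinal GFP- array 2 (adjusted p = 0.0596). Acss2 (0.26, adjusted p = 0.0594) gained a call without inguinal GFP+ array 2 (adjusted p = 0.0464) or epididymal GFP+ array 1 (adjusted p = 0.0482), and under 6 other settings, among them quantile normalization (0.31, adjusted p = 0.0284) and the mean of both probe sets (0.48, adjusted p = 0.000922).

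Centring each array on its median changed the balance over all genes more than that over the synthesis genes. In the inguinal contrast 652 genes were called higher and 904 lower, and 986 and 671 after centring, while the synthesis genes went from 21 and 0 to 23 and 0. For the difference of the GFP contrast between depots the split went from 2000 and 2313 to 2563 and 1843, with the synthesis genes at 19 and 2 in both. For GFP+ cells between depots it went from 2922 and 3370 to 3704 and 2687, with 25 synthesis genes higher in both.

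Markers of other cell types also differed between the groups, with peaks in different groups for different lists. Their counts stand beside all-gene shares of 5.26% higher and 7.29% lower in the inguinal contrast and 21.5% and 20.3% in the epididymal one. Between GFP+ cells, 23.6% of all genes were called higher and 27.2% lower in inguinal fat. The 20 measured macrophage and leukocyte markers summed to 6404 to 6948 in inguinal GFP+ and 13945 to 16235 in inguinal GFP- arrays, against 4152 to 4425 in epididymal GFP+ and 3913 to 4308 in epididymal GFP- arrays, with 9 of the 20 weakly detected. In the inguinal contrast 12 of the 20 were called lower in GFP+ cells and 1 higher, and Ptprc, the leukocyte antigen CD45, had means of 9.31 and 251. The 1 higher was Cd53, a tetraspanin, whose mean of 4110 makes up most of the inguinal GFP+ sum, beside 2160 in inguinal GFP-, 905 in epididymal GFP+ and 208 in epididymal GFP- cells. Between the GFP+ groups, 7 of the 20 markers were called lower in inguinal cells and 1, Cd53, higher. The 12 measured mesothelial markers summed to 9990 to 10397 in epididymal GFP+ and 45870 to 47870 in epididymal GFP- arrays, against 2447 to 2819 in inguinal arrays, and 11 of them were called lower in epididymal GFP+ cells. Upk3b, a mesothelial membrane protein, had epididymal means of 600 and 9459, against 10.5 and 12.5 in inguinal cells. Krt19, a keratin of the same list, went the other way and made up a large part of the inguinal sum. Its GFP+ and GFP- means were 1292 and 1186 in inguinal and 191 and 216 in epididymal cells. Between GFP+ cells 9 of the 12 mesothelial markers were called lower and 2 higher in inguinal fat. The 12 endothelial markers, 10 of them weakly detected, summed to 5568 to 5779 in epididymal GFP- arrays and to 572 to 1275 in the other groups, mostly through Kdr (4469 in epididymal GFP- cells). The 12 mural and smooth muscle markers summed to 87335 to 89665 in inguinal GFP+, 95053 to 96913 in inguinal GFP-, 112738 to 115428 in epididymal GFP+ and 108019 to 110249 in epididymal GFP- arrays. Between GFP+ cells 7 of them were called lower and 1 higher in inguinal fat, and Myh11, smooth muscle myosin, had means of 2647 and 13595 in inguinal and epididymal GFP+ cells. Acta2, the largest single part of the sum, went the other way, with means of 37676 and 31391 in these groups. The 8 epithelial markers, 7 of them weakly detected, summed over the 12 arrays to 221 to 949. The 7 measured markers of skeletal muscle and Schwann cells, 5 of them weakly detected, summed to 3037 to 14172, lowest in epididymal GFP- cells. Most of that sum was the single gene Acta1. Its GFP+ and GFP- means were 11899 and 9467 in inguinal and 8351 and 3057 in epididymal cells. In both depots the GFP+ cells also had more of Lpl, the lipase of lipid uptake (1.31 and 0.41 on the log2 scale, adjusted p = 8.71e-07 and 0.00813). The part of these cell types and of the cells' state in the synthesis gene differences was not tested.

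Other genes of the same pathways were counted from lists of 82 genes, of which 62 were measured. Their counts stand beside all-gene shares of 5.26% higher and 7.29% lower in inguinal fat and 21.5% and 20.3% in epididymal fat. Of 6 further sterol synthesis genes, 2 were called higher and 1 lower in inguinal GFP+ cells, and 0 higher and 3 lower in epididymal GFP+ cells. Msmo1, the methyl sterol oxidase, had differences of 0.40 (adjusted p = 4.77e-08) and -0.72 (adjusted p = 2.66e-12). Pgrmc1, a haem protein that partners Cyp51, had 0.13 (adjusted p = 0.00216) and -0.25 (adjusted p = 4.5e-07). Cyb5r3, of the same list, was lower in GFP+ cells of both depots (-0.09, adjusted p = 0.0237 and -0.40, adjusted p = 1.92e-09). Lbr, the nuclear envelope sterol reductase, was not called in either (adjusted p = 0.0822 and 0.0658). The listed genes that were not measured are not analysed here.

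Of 6 genes of SREBP control, 2 were called higher and 0 lower in inguinal GFP+ cells, and 1 each way in epididymal GFP+ cells. Scap, the escort of the SREBPs, had differences of 0.33 (adjusted p = 7.76e-05) and -0.22 (adjusted p = 0.000831), with 0.55 between them (adjusted p = 3.67e-06). Mylip, a sterol-responsive ubiquitin ligase, was higher in GFP+ cells of both depots (0.48, adjusted p = 0.00124 and 0.29, adjusted p = 0.0134). The protease gene Mbtps1 was not called (-0.04 and 0.07).

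Of 14 genes of sterol uptake, storage and export, 3 were called higher and 2 lower in inguinal GFP+ cells, and 8 higher and 5 lower in epididymal GFP+ cells. Abca1, a pump that exports cholesterol, had differences of 0.31 (adjusted p = 0.00086) and -1.35 (adjusted p = 4.44e-12), and in GFP- cells it was lower in inguinal than in epididymal fat (-2.84, adjusted p = 2.84e-16). Abcg1, of the same list, was higher in inguinal than in epididymal GFP- cells (2.09, adjusted p = 1.46e-07). Its GFP+ and GFP- means were 250 and 154 in inguinal and 108 and 24.8 in epididymal cells. Ch25h, which makes an oxysterol that holds back SREBP activation, was lower in inguinal (-0.57, adjusted p = 0.00607) and higher in epididymal GFP+ cells (1.77, adjusted p = 8.49e-09), with -2.34 between them (adjusted p = 3.33e-08). Cyp7b1, an oxysterol hydroxylase, was higher in GFP+ cells of both depots (2.02, adjusted p = 1.1e-06 and 3.02, adjusted p = 7.85e-10).

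Of 25 further genes of fatty acid synthesis and elongation, 3 were called higher and 4 lower in inguinal GFP+ cells, and 6 higher and 7 lower in epididymal GFP+ cells. Hacd4, a dehydratase of the elongation cycle family, had differences of 0.33 (adjusted p = 4.46e-05) and -0.90 (adjusted p = 3.71e-11). Fads3, a relative of Fads1 and Fads2, was higher in epididymal GFP+ cells (1.04, adjusted p = 2.14e-12), with -0.09 in inguinal fat (adjusted p = 0.187). Of 11 genes that supply carbon and NADPH, 3 were called higher and 1 lower in inguinal GFP+ cells, and 6 higher and 2 lower in epididymal GFP+ cells. The glucose transporter gene Slc2a1 had -0.10 (adjusted p = 0.0743) and 1.02 (adjusted p = 6.23e-13), and Me1, the cytosolic malic enzyme, was higher in epididymal GFP+ cells (0.41, adjusted p = 6.53e-08).

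Across depots, the counts of the further lists stand beside all-gene shares of 23.6% higher and 27.2% lower in GFP+ cells and 27.4% and 26.3% in GFP- cells, and are a description only. In GFP+ cells the 6 further sterol genes were 3 higher and 2 lower in inguinal fat, SREBP control 3 and 2, the 14 uptake and export genes 3 and 6, the 25 fatty acid genes 7 and 3, and the 11 carbon supply genes 5 and 3. In GFP- cells the counts were 3 and 2, 3 and 1, 5 and 4, 6 and 9, and 6 and 2. For the difference of the GFP contrast, with all-gene shares of 16.1% and 18.7%, they were 3 and 1, 1 and 0, 4 and 6, 7 and 7, and 2 and 4.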

How the data were processed

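Total RNA of 12 samples was hybridised to Affymetrix arrays. The deposited table holds the authors' linear signal intensity for 22626 probe sets. The signal algorithm and scaling are not given in the sources used here, so how they affect small differences is unknown. Of the probe sets, 20380 carried 1 gene symbol, 691 several and 1555 none in the platform annotation. For each of 12393 genes the probe set with the highest mean was kept. Values were log2-transformed after adding 16 and fitted over all 4 groups with limma 3.58.1 (R 4.3.3, lmFit and eBayes with a variance trend), and p-values were adjusted by Benjamini-Hochberg over all genes at 0.05. The script was tested on simulated data. Per-array values are shown for the 4 genes per comparison and direction with the smallest adjusted p and for Srebf1, Srebf2, Fasn, Scd1 and Scd2. For each other pathway list and comparison the rule took up to 3 called genes and 1 uncalled one, and part of those is named. The members and lists were chosen with earlier results of these data known. Weak genes, normalization, pseudocount, probe set rule, variance model, array weights, a fold minimum, a replicate block and single arrays were varied. Precision is limited by 3 arrays per group.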

Additional observations from a re-analysis of the deposited data

Results flagged for a closer look

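The GFP contrast differed between depots by the interaction term of the limma fit for 21 synthesis genes, given here as inguinal minus epididymal log2 differences. For sterol enzymes it was 1.30 in Tm7sf2, 1.06 in Sqle, 1.02 in Idi1, 0.92 in Dhcr7, 0.85 in Cyp51, 0.81 in Fdft1, 0.72 in Hmgcs1, 0.59 in Sc5d, 0.55 in Nsdhl, 0.54 in Lss, 0.54 in Fdps and -0.27 in Ebp. For the carrier Stard4 it was 1.05 and for Srebf2 0.49. For fatty acid genes it was 0.74 in Elovl6, 0.49 in Acss2, 0.33 in Elovl5, 0.32 in Acly, 0.19 in Fasn, 0.14 in Scd1 and -0.20 in Fads1. Adjusted p ranged from 3.16e-10 (Hmgcs1) to 0.0258 (Scd1). Groups of 3 arrays were not searched for outlying samples.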

How the results depend on the processing

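Over 24 alternatives, counts of called synthesis genes stayed within 1.5 times the reported ones in all 5 comparisons, except under a minimum change of 1.5-fold. That minimum left 0 in inguinal GFP+ against GFP- cells and 1 in epididymal GFP+ against GFP- cells, from 21 and 19. It left 7 for the difference of the GFP contrast between depots, 13 between GFP+ cells and 1 between GFP- cells, from 21, 26 and 24. Leaving out 1 array at a time gave 19 to 24, 19 to 20, 19 to 21, 25 to 26 and 21 to 25. A fit of only the groups compared already holds all 4 groups for the difference of the GFP contrast between depots and gives no separate value there. With the replicate number as a block the counts were 20, 19, 21, 26 and 23; Pmvk in inguinal fat (adjusted p = 0.061) and Stard4 between GFP- cells (adjusted p = 0.0658) lost their calls. Deviations of same-numbered arrays correlated at -0.057 to 0.044 over 18 pairs, 0 of them above 0.1, beside -0.046 to 0.06 for other numbers. These values show no pairing by number. They cannot exclude a shared source, because array noise may hide one and the labels do not say what the numbers stand for.

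Of 3446 gene values under alternatives, 3258 kept their side of the threshold (49 of them, uncalled both times, with the other sign), 151 lost the call, 33 gained one and 4 reversed with a call in at least 1 of the fits. With the mean of all probe sets, the epididymal Fdps difference was 0.0103. The Mvd difference of the GFP contrast between depots was then 0.55 and Mvd between GFP+ cells was 0.63. Without probe sets ending in _x_at or _s_at, chosen after seeing the data, the epididymal Lss difference was -0.63. In each case another probe set entered the value. A dim or cross-matching set limits Fdps, Fdft1, Sc5d, Lss and Mvd, and signal near background limits Acaca.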
